A study of Mus musculus with 19 samples.

Results

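Bex1, Bex2, Bex4, Tceal1 and Tceal8, which belong to 2 small gene families of the X chromosome, were followed through 19 polyA RNA-seq libraries of mouse lung. They were taken by name, through their Entrez gene IDs, as 5 of the 36528 IDs in the count tables, and 7 further Bex and Tceal genes (Bex3, Bex6, Tceal3, Tceal5, Tceal6, Tceal7 and Tceal9) were set beside them. The members were chosen by their measured genotype differences, Etv5KO against control, in these same AT2 and lung libraries. The members' values are therefore a description: no p-value is printed for them, and where counts of members past a threshold are given beside the share of all genes, nothing is read from them.

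The mutant group, labelled Etv5KO, carried SpcCreERT2, the RosatdTomato reporter, and 1 knockout and 1 loxP-flanked allele of Etv5, an ETS family transcription factor. The control group carried SpcCreERT2 and RosatdTomato alone. Both groups had received tamoxifen at 100 mg/kg body weight on 5 days and were left for another 5 days. SpcCreERT2 is a tamoxifen-dependent Cre recombinase driven by the promoter of Sftpc, the surfactant protein C gene, so recombination was aimed at alveolar type II (AT2) cells, while the knockout allele was carried by every cell of the Etv5KO mice. AT2 cells were sorted as EpCAM+ tdTomato+ CD45- CD31-, and lung was the whole tissue. The libraries comprised 5 of Etv5KO AT2 cells, 4 of control AT2 cells, 5 of Etv5KO lung and 5 of control lung; the design names 5 mice per genotype, and 1 control AT2 library of the 5 was not analysed here.

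Total counts ran from 17426415 to 26722625 in Etv5KO AT2 libraries and from 20279607 to 28671262 in control AT2 libraries, and from 20332410 to 22478603 in Etv5KO lung and 14971793 to 26989453 in control lung. All 8 AT2 marker genes were higher in AT2 cells than in lung in both genotypes. Etv5 itself did not check the genotype labels: it averaged 713 ± 58.4 CPM in Etv5KO AT2 cells (SD, n = 5) and 667 ± 36.1 CPM in control AT2 cells (SD, n = 4), and a count per gene model holds reads of any exon. Control AT2 library 2 stood apart from the other controls, with a score of 47.33 on the second principal component of the AT2 libraries against −11.07 to 1.885 for the other control AT2 libraries. The members' fold changes that rest on it are given with and without it.

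BEX proteins (brain expressed, X-linked) are small, largely disordered adaptor proteins that are abundant in brain and endocrine cells. Rat Bex1 and the product of Bex3 bind the intracellular domain of the p75 neurotrophin receptor, and human BEX proteins have been described as pseudosubstrate inhibitors of the CUL2-FEM1B ubiquitin ligase. TCEAL proteins are named for their likeness to transcription elongation factor TFIIS, encoded by the Tcea genes. Both families lie in 1 gene cluster on the X chromosome and are found in placental mammals.

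The members are close relatives, which bears on both their names and their counts. In the RefSeq gene table, the gene called Bex2 here (Entrez Gene 12069) has Bex1 as an older synonym, and the gene called Bex1 here (Entrez Gene 19716) has Bex4 and Rex3 as older synonyms, so the same symbols can mean different genes in different sources. The coding sequences of Bex1 (384 bases) and Bex2 (387 bases) shared 92.2% of aligned bases in GENCODE vM21 transcripts, whereas Bex1 and Bex4 shared 59.5% and Tceal1 and Tceal8 71.7%. The authors counted uniquely aligned reads. Of all 50-base windows along the transcripts, 30.9% of those of Bex1, 22.2% of those of Bex2 and 49.8% of those of Bex4 also occurred exactly in another gene, against 0.806% for Tceal8 and none for Tceal1. The read length is not given in the sources used here, and the levels of Bex1, Bex2 and Bex4 rest on the part of each transcript that a read can place.

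The sequences before the gene starts grouped the Bex genes differently from the coding sequences, and they are shown because they pair the genes in another way. Each line gives the 250 bases upstream of the RefSeq start (GRCm38.p6), 5′ to 3′ on the gene's strand, in lower case with capitals marking GGAA or its reverse complement TTCC, the core that ETS factors bind. Bex1 lies at chrX:136215514-136215763 on the minus strand, Bex4 at chrX:136138746-136138995 on the plus strand, Bex2 at chrX:136068237-136068486 on the minus strand and Bex3 at chrX:136270003-136270252 on the plus strand.
Bex1: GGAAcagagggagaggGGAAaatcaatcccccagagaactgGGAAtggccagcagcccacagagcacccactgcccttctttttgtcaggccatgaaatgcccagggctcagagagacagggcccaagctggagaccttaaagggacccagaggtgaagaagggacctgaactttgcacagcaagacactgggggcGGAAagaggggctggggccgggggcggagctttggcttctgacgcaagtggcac
Bex4: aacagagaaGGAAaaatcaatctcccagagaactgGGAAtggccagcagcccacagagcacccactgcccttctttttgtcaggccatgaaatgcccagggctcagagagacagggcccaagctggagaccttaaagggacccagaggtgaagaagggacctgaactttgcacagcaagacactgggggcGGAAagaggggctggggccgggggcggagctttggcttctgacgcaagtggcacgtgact
Bex2: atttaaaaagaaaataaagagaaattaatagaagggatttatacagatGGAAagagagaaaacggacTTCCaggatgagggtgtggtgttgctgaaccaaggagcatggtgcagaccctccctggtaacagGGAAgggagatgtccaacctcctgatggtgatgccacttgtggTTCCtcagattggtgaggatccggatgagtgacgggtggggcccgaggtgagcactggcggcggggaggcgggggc
Bex3: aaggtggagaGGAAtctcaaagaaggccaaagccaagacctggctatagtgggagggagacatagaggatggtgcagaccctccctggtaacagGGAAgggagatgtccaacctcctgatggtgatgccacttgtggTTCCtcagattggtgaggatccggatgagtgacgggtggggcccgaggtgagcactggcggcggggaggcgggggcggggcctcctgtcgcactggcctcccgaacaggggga

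Bex1 and Bex4, which face in opposite directions, shared 241 of 244 aligned upstream bases (98.8%). Bex2 and Bex3 shared 186 of 212 (87.7%). The other pairs among these 4 genes, Tceal1 and Tceal8 shared between 48.5% and 64.5%, which includes Bex1 with Bex2 at 55.2%. GGAA on either strand occurred 4 times before Bex1, 4 times before Bex2, 3 times before Bex4 and 3 times before Bex3, and 7 and 6 times before Tceal1 and Tceal8. Of 32851 promoters of the same length, 93.4% held at least 1 such match, with a median of 3. The longer form CCGGAA occurred before none of these 6 genes and in 12.03% of promoters. A match is a run of letters and not a measured binding site.

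Bex2 was the member with the largest difference between the genotypes, in sorted AT2 cells and in lung alike. CPM here is edgeR's library-size-scaled count, with TMM factors over all 19 libraries. In AT2 cells Bex2 stood at 59.5, 31.4, 16.6, 39.2 and 24.3 CPM in the 5 Etv5KO libraries, against 252, 152, 273 and 163 CPM in the 4 control libraries. The groups were far apart, and the highest Etv5KO library was below the lowest control. The log2 fold change of Etv5KO over control was −2.62 (SE 0.32, 95% interval −3.31 to −1.93), a level 6.15-fold lower, and without control AT2 library 2 it was −2.75. In lung Bex2 stood at 1.95, 2.21, 3.62, 4.17 and 5.29 CPM in Etv5KO libraries, against 20.8, 23.0, 21.8, 28.5 and 17.7 CPM in control libraries. Again no library overlapped, and Bex2 was 6.52-fold lower (log2 −2.71, SE 0.24, interval −3.23 to −2.19). In bulk RNA, fewer cells of a type and less RNA per cell cannot be told apart.

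The Etv5KO libraries also varied more among themselves in Bex2 than the controls did. The coefficient of variation of Bex2 CPM was 48.1% in Etv5KO AT2 cells and 29.4% in control AT2 cells, and 40.3% in Etv5KO lung and 17.7% in control lung. The highest Etv5KO AT2 library held 3.59 times the level of the lowest, against 1.80 times among control AT2 libraries. The difference in spread was not tested.

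**Figure D1:**
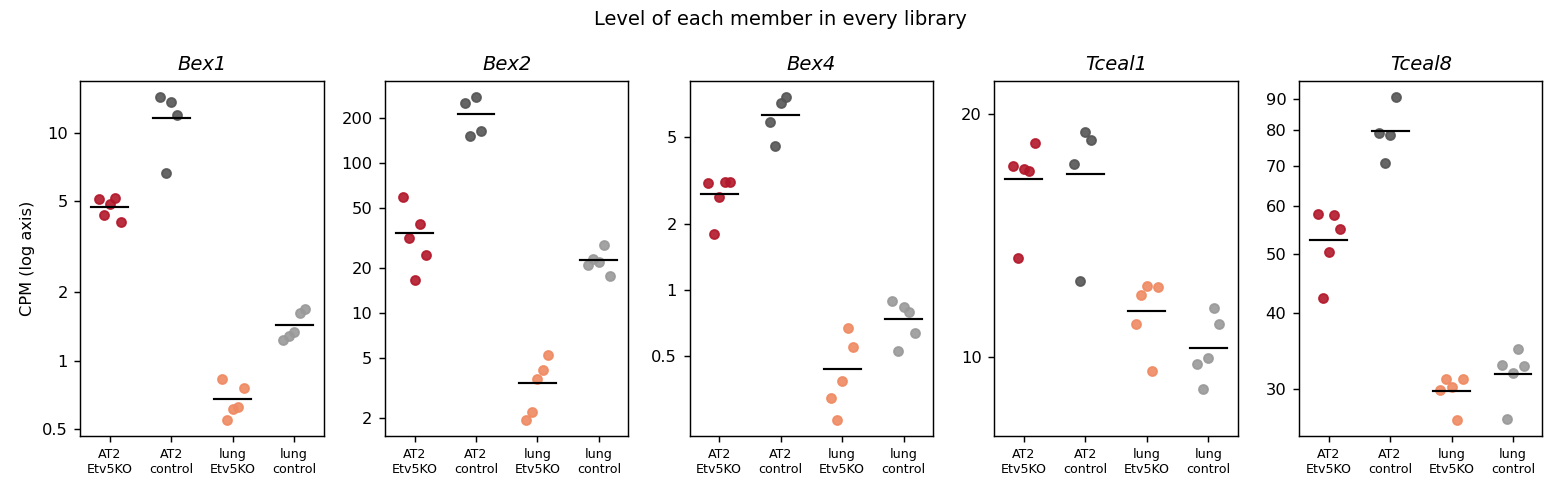
CPM of each member (log axis, a scale of its own in each panel) in the 19 libraries, with points for libraries and black bars for group means. Bex2, Bex1 and Tceal8 points of Etv5KO AT2 cells lie below all control AT2 points, as do those of Bex4, while the Tceal1 points of the genotypes overlap in both tissues.

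Bex1, the closest relative of Bex2 by coding sequence, was lower in Etv5KO libraries by a smaller factor. It stood at 5.12, 4.38, 4.86, 5.18 and 4.07 CPM in Etv5KO AT2 libraries, against 14.3, 6.66, 13.7 and 11.9 CPM in control AT2 libraries. The Etv5KO values lay close together and below all controls, of which library 2 was the lowest. Etv5KO over control, the log2 fold change came to −1.30 (SE 0.20, interval −1.73 to −0.86), or −1.49 without control AT2 library 2. In lung, where Bex1 rested on 13 to 21 reads per Etv5KO library and 22 to 45 reads per control library, it stood at 0.836, 0.552, 0.615, 0.625 and 0.761 CPM in Etv5KO libraries, against 1.23, 1.29, 1.34, 1.62 and 1.69 CPM in controls. Those groups did not overlap either, with a log2 fold change of −1.08 (SE 0.18, interval −1.47 to −0.69).

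Bex4 stood at 3.08, 1.79, 2.66, 3.11 and 3.09 CPM in Etv5KO AT2 libraries, against 5.86, 4.52, 7.14 and 7.59 CPM in control AT2 libraries. All Etv5KO libraries were below all controls, with a log2 fold change of −1.18 (SE 0.20, interval −1.62 to −0.74), or −1.31 without control AT2 library 2. In lung Bex4 was near the limit of detection, with 6 to 16 reads per Etv5KO library and 9 to 25 per control library. Its lung levels were 0.319, 0.255, 0.385, 0.667 and 0.550 CPM in Etv5KO libraries, against 0.891, 0.527, 0.838, 0.791 and 0.634 CPM in controls. The lung groups overlapped, with a log2 fold change of −0.78 (interval −1.38 to −0.19).

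The 2 Tceal members differed from the Bex members and from each other. Tceal8 stood at 58.1, 42.3, 50.4, 58.0 and 54.9 CPM in Etv5KO AT2 libraries, against 79.1, 70.6, 78.5 and 90.7 CPM in control AT2 libraries. The groups did not overlap, with a log2 fold change of −0.59 (SE 0.11, interval −0.82 to −0.36), or −0.64 without control AT2 library 2. In lung Tceal8 stood at 29.9, 31.1, 30.2, 26.7 and 31.2 CPM in Etv5KO libraries, against 32.8, 26.7, 31.8, 34.9 and 32.7 CPM in controls, with overlapping groups and a log2 fold change of −0.10 (interval −0.26 to 0.06).

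Tceal1 showed no separation of the genotypes in either tissue. It stood at 17.3, 13.3, 17.1, 17.0 and 18.4 CPM in Etv5KO AT2 libraries, against 17.4, 12.5, 19.003 and 18.6 CPM in control AT2 libraries, a log2 fold change of −0.01 (interval −0.31 to 0.29) whose sign turned with the scaling, or −0.13 without control AT2 library 2. In lung it stood at 10.99, 11.9, 12.3, 9.63 and 12.2 CPM in Etv5KO libraries, against 9.80, 9.14, 9.99, 11.5 and 10.998 CPM in controls. The lung log2 fold change was 0.14 (interval −0.06 to 0.35).

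Among all genes tested with edgeR's quasi-likelihood test (Benjamini-Hochberg adjusted p under 0.05), 723 of 14939 in AT2 cells (4.84%) were called lower in Etv5KO and 9.87% were called in either direction. In lung 36 of 17098 (0.211%) were called lower and 0.415% in either direction. The calls split into 751 higher and 723 lower in AT2 cells, and 894 and 482 when scaled by library size alone. In lung they split into 35 higher and 36 lower, and 123 and 74 with DESeq2. Of the 5 members, 4 were past that threshold as lower in AT2 cells and 2, Bex2 and Bex1, in lung, and none was higher. Non-overlapping groups with the lower values in Etv5KO were found for 4 members in AT2 cells and 2 in lung, where 6.49% and 0.544% of all genes tested showed the same. The members were named with these differences known, so nothing is read from the counts. The median log2 fold change was −1.18 over the 5 members and −0.01 over all genes in AT2 cells, and −0.78 over the members and −0.01 over all genes in lung. The place of Bex1 among the lung calls depended on single libraries: it was lost without Etv5KO lung library 2, 3 or 4 or control lung library 3, 4 or 5.

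**Figure D2:**
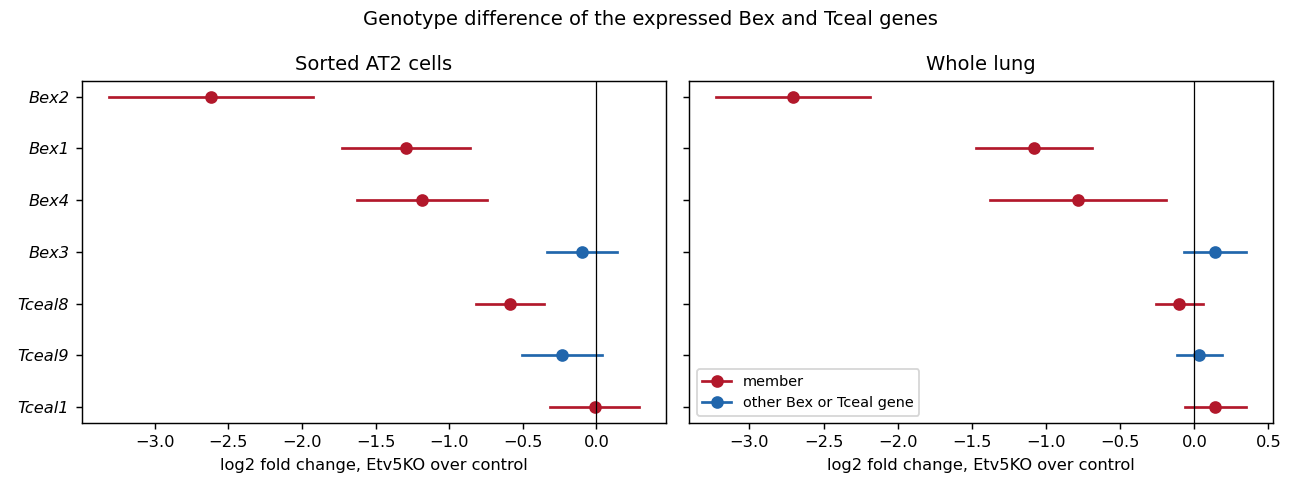
Log2 fold change of Etv5KO over control with its 95% interval in AT2 cells (left) and lung (right) for the 7 Bex and Tceal genes with enough reads in both tissues, the 5 members in red and Bex3 and Tceal9 in blue. Bex2 lies at −2.62 in AT2 cells and −2.71 in lung, while the intervals of Bex3, Tceal9 and Tceal1 include 0 in both.

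Of the 7 other family genes, only Bex3 and Tceal9 had more than 20 reads in any library, and both were among the most abundant of the family. Bex3, whose product is also known as the p75 receptor adaptor NADE, averaged 104 ± 14.1 CPM in Etv5KO AT2 cells (SD, n = 5) and 112 ± 11.8 CPM in control AT2 cells (SD, n = 4). Its log2 fold change was −0.10 (interval −0.34 to 0.14) in AT2 cells and 0.14 (interval −0.07 to 0.35) in lung. Tceal9, once named Wbp5 for its binding to WW domains, averaged 230 ± 37.3 CPM in Etv5KO AT2 cells and 271 ± 26.5 CPM in control AT2 cells, with log2 fold changes of −0.23 (interval −0.50 to 0.03) in AT2 cells and 0.03 (interval −0.12 to 0.19) in lung. Neither was past the threshold in either tissue. Without control AT2 library 2 the AT2 values were −0.12 for Bex3 and −0.25 for Tceal9. For the upstream pair Bex2 and Bex3 the intervals lay apart in both tissues, and for the upstream pair Bex1 and Bex4 they overlapped in both. Bex1, Bex2 and Bex4 were chosen by these values and Bex3 was not, so nothing about the upstream sequences is read from them.

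The remaining family genes were barely detected. Tceal3 had 2 to 20 reads per Etv5KO AT2 library and 0 to 20 per control AT2 library, and its log2 fold change of 0.43 (interval −0.98 to 1.85) was 0.01 without control AT2 library 2. Tceal5 had at most 12 reads and Tceal7 at most 2 in any library. Bex6, which lies on chromosome 16 and not in the X cluster, had 0 reads in all Etv5KO AT2 libraries and at most 1 in control AT2 libraries, with 3 to 7 in Etv5KO lung and 3 to 17 in control lung. Tceal6 had 0 reads in all 9 AT2 libraries, which allows a level of up to 0.0151 CPM over them together (3 counts of their summed total, for counting error only). Its coding sequence shared 98.2% of bases with that of Tceal3, and 45.3% of the 50-base windows of Tceal6 and 12.9% of those of Tceal3 also occurred in another gene.

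On the authors' per-length scale, an RPKM value divided by a size factor, levels of different genes can be compared, with a limit. Unique reads are divided by the full length, so the shared windows given above may lower the values of Bex1, Bex2 and Bex4 by unlike amounts, and their places beside Tceal1 and Tceal8 carry that limit. In Etv5KO AT2 cells the order was Tceal9 (215 ± 34.2), Bex3 (105 ± 14.2), Bex2 (36.2 ± 17.3), Tceal8 (21.2 ± 2.65), Tceal1 (10.6 ± 1.21), Bex1 (5.20 ± 0.528) and Bex4 (3.34 ± 0.686; SD, n = 5). There the neighbours that did not differ beyond their spread, their libraries overlapping, were Bex2 and Tceal8. In control AT2 cells the order was Tceal9 (250 ± 22.6), Bex2 (218 ± 63.8), Bex3 (112 ± 11.6), Tceal8 (31.5 ± 3.23), Bex1 (12.6 ± 3.77), Tceal1 (10.6 ± 1.86) and Bex4 (7.52 ± 1.62; SD, n = 4). In these controls such neighbours were Tceal9 and Bex2, Bex1 and Tceal1, and Tceal1 and Bex4, though without control AT2 library 2 Bex1 (14.4 ± 1.42), Tceal1 (11.5 ± 0.423) and Bex4 (8.21 ± 1.01; SD, n = 3) kept the order with no overlap. Bex2 stood below Bex3 in Etv5KO AT2 cells and above it in control AT2 cells, with no overlap in either group.

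In lung the per-length levels of all 5 members were lower than in AT2 cells of the same genotype, and Bex2 ranked lower in the family. In Etv5KO lung the per-length means were 56.3 for Tceal9, 30.6 for Bex3, 12.2 for Tceal8, 7.40 for Tceal1, 3.71 for Bex2, 0.760 for Bex1 and 0.539 for Bex4. In control lung they were 54.6 for Tceal9, 27.5 for Bex3, 24.0 for Bex2, 13.0 for Tceal8, 6.66 for Tceal1, 1.60 for Bex1 and 0.909 for Bex4 (n = 5 each). Bex2 therefore ranked below Tceal8 and Tceal1 in Etv5KO lung and above both in control lung. The order of the other 6 genes by mean was the same in both. Neighbours whose libraries overlapped were Bex1 and Bex4 in Etv5KO lung, and Bex3 and Bex2 in control lung.

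Bex2 made up 4.69% to 13.4% of the summed per-length level of the 12 family genes in Etv5KO AT2 libraries and 28.6% to 38.5% in control AT2 libraries. In lung its share was 1.95% to 5.26% in Etv5KO libraries and 15.5% to 20.8% in control libraries. Tceal9 had the highest mean level in every group, and its share was 51.2% to 57.9% in Etv5KO AT2 libraries and 34.8% to 43.3% in control AT2 libraries. A share depends on the other genes of the sum, and the Tceal9 level itself averaged 215 in Etv5KO and 250 in control AT2 cells. There were 8.60 to 29.3 Bex1 reads per 100 Bex2 reads in Etv5KO AT2 libraries and 4.40 to 7.33 in control AT2 libraries. In lung there were 14.4 to 42.9 in Etv5KO libraries and 5.60 to 9.58 in control libraries. Neither tissue showed an overlap, and the levels of Bex1 and Bex2 did not keep 1 ratio.

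**Figure D3:**
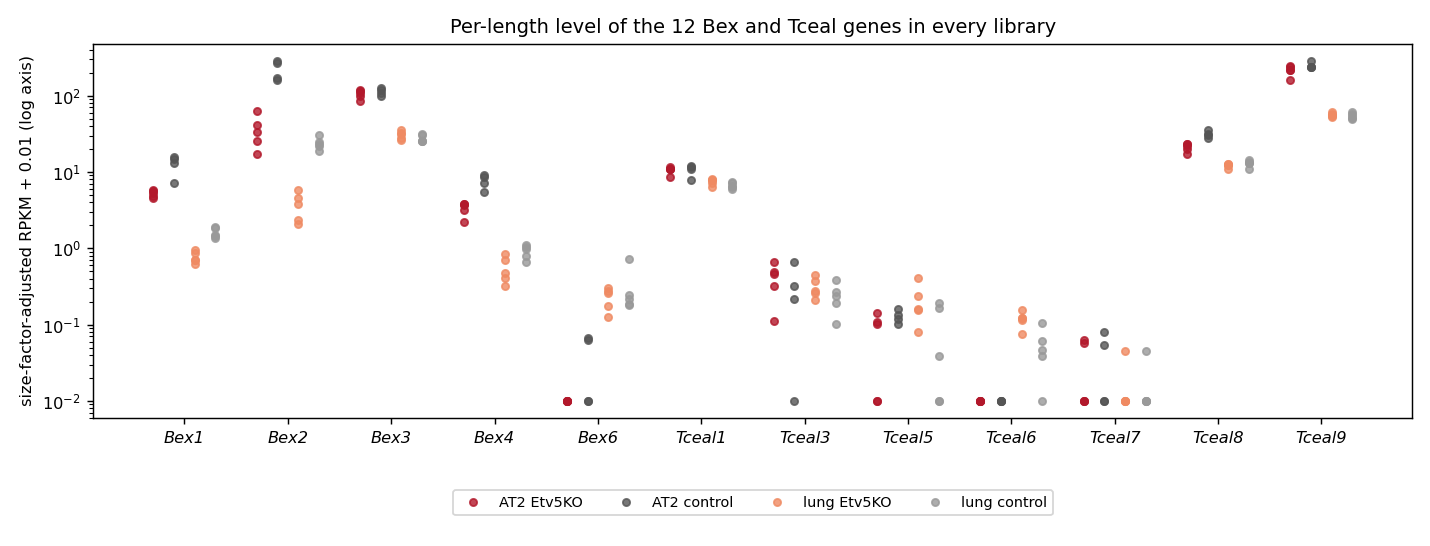
Per-length level (size-factor-adjusted RPKM plus 0.01, log axis) of the 12 Bex and Tceal genes in every library, Etv5KO and control AT2 cells and then Etv5KO and control lung within each gene, with points at 0.01 listed at 0. Tceal9, Bex2 and Bex3 lead in control AT2 cells, and the Bex2 points of both Etv5KO groups lie below those of their controls.

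The genotype differences in AT2 cells and in lung were set against each other in 1 model of all 19 libraries. The difference of the log2 fold changes, AT2 minus lung, was 0.08 for Bex2 (interval −0.79 to 0.94), −0.23 for Bex1 (−0.83 to 0.38), −0.41 for Bex4 (−1.15 to 0.32), −0.17 for Tceal1 (−0.52 to 0.18) and −0.50 for Tceal8 (−0.77 to −0.23). Without control AT2 library 2 these differences were −0.03, −0.40, −0.51, −0.26 and −0.53 in the same order of genes, so the sign for Bex2 turned. They are built from the genotype differences that chose the members, so no call is read from them. Of all genes tested with edgeR 1.59% were past the adjusted threshold, and of the 5 members 0 were (1 at an unadjusted p under 0.05, 1 with DESeq2 and 0 with limma-voom). The interval for Bex2 leaves room for differences of up to 0.94 on the log2 scale between the tissues.

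The level of the members was also set side by side in sorted AT2 cells and whole lung. The members were named with the levels of all 4 groups known, so this too is a description. All 5 were past the edgeR threshold as higher in AT2 cells in both genotypes, where 38.3% of all genes tested were called higher in AT2 cells among Etv5KO libraries and 35.6% among control libraries, with 74.5% called in either direction among controls. In Etv5KO mice Bex2 averaged 34.2 ± 16.4 CPM in AT2 cells and 3.45 ± 1.39 CPM in lung (SD, n = 5 each), a log2 fold change of 3.32 (SE 0.35). In control mice it averaged 210 ± 61.6 CPM in AT2 cells (SD, n = 4) and 22.4 ± 3.97 CPM in lung (SD, n = 5), a log2 fold change of 3.23 (SE 0.20), or 3.37 without control AT2 library 2. The AT2 and lung libraries did not overlap for any member in either genotype. How many of all genes tested showed the same was not counted, so nothing is read from that.

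Bex1 and Bex4 showed AT2-over-lung differences close in size to that of Bex2, and the Tceal members smaller ones. In Etv5KO mice the log2 fold change was 2.80 for Bex1 (interval 2.46 to 3.15), 2.66 for Bex4 (2.10 to 3.22), 0.84 for Tceal8 (0.64 to 1.04) and 0.56 for Tceal1 (0.33 to 0.79). In control mice it was 3.02 for Bex1 (2.52 to 3.51), 3.06 for Bex4 (2.60 to 3.52), 1.32 for Tceal8 (1.12 to 1.52) and 0.71 for Tceal1 (0.42 to 1.00). Without control AT2 library 2 the control values were 3.23 for Bex1, 3.20 for Bex4, 1.39 for Tceal8 and 0.85 for Tceal1. Bex3 (1.83 in Etv5KO and 2.06 in control mice) and Tceal9 (1.98 in Etv5KO and 2.24 in control mice) lay between. The 8 AT2 markers had a median log2 fold change of 2.70 among Etv5KO libraries and 2.80 among control libraries. Scaling by library size alone moved the median of all genes to −0.36 among Etv5KO libraries and −0.42 among controls, and the split to 3579 higher and 9341 lower (6417 and 6646 with TMM) and 3318 higher and 9484 lower (6092 and 6662 with TMM). It made the Tceal1 difference among Etv5KO libraries 0.19, which was no longer past the threshold.

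**Figure D4:**
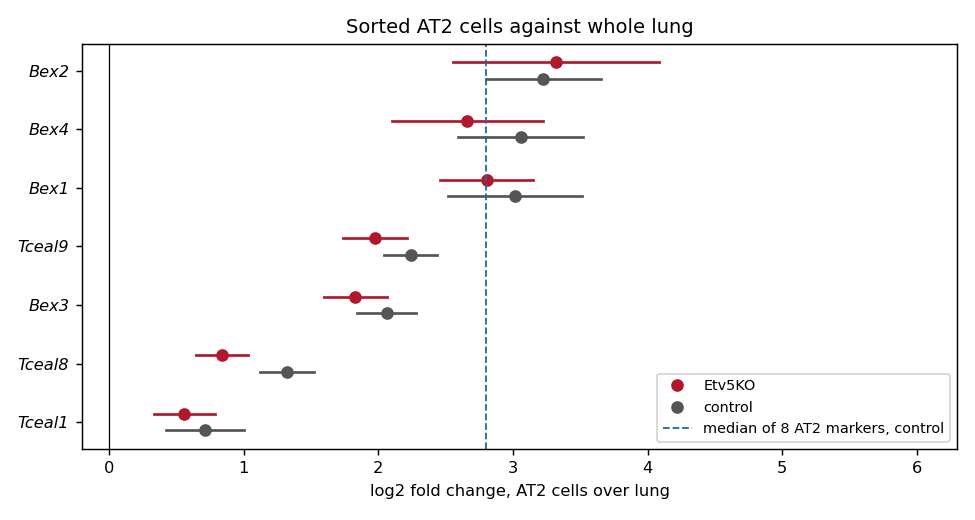
Log2 fold change of AT2 cells over lung with its 95% interval, among Etv5KO libraries (red, upper of each pair) and control libraries (grey, lower), with the median of the 8 AT2 markers among controls as a dashed line. Bex2, Bex4 and Bex1 lie near the marker line at 2.80, and Tceal8 and Tceal1 lie at 1.32 or below.

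The summed level of 8 AT2 marker genes was set beside the Bex2 level. Such a sum follows its most abundant transcripts and is not a count of AT2 cells. In control AT2 cells Sftpa1 averaged 33444 CPM and Lamp3 3772 CPM. The summed level of the 8 AT2 markers ran from 128561 to 163466 CPM in Etv5KO AT2 cells, with a median of 145945 CPM, and from 135913 to 206843 CPM in control AT2 cells, with a median of 190160 CPM. It ran from 17458 to 24389 CPM in Etv5KO lung and from 19297 to 25600 CPM in control lung, with overlapping ranges. Per 10000 CPM of these markers there were 0.976 to 2.68 CPM of Bex2 in Etv5KO lung and 7.46 to 11.1 in control lung. The same ratio was 1.14 to 3.84 in Etv5KO AT2 cells and 8.73 to 13.2 in control AT2 cells. These ratios did not overlap between the genotypes in either tissue. The part of AT2 content in the Bex2 difference was not tested. Among the markers themselves, 3 of 8 were called lower in Etv5KO AT2 cells (Sftpa1, Lpcat1 and Napsa), beside 4.84% of all genes tested. In Etv5KO lung 1 of 8 was called lower (Sftpa1), beside 0.211%. Leaving out any of 7 and 2 of the 9 AT2 libraries lost the calls of Napsa and Lpcat1 (edgeR adjusted p up to 0.109 and 0.0642). The lung call of Sftpa1 was lost when any of 8 of the 10 libraries was left out (adjusted p up to 0.102). Its AT2 call was kept without any single library.

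Some markers of other cell types were called between the genotypes in the sorted cells, where 9.87% of all genes tested were called in either direction. Their part in the members' values was not tested. The 8 AT1 markers summed to 4851 to 5217 CPM in Etv5KO AT2 libraries and 3379 to 4255 CPM in control AT2 libraries. Of these, 4 were called higher and 1 lower. Leaving out any of 5, 7 and 6 of the 9 libraries lost the calls of Ager, Cav1 and Aqp5. The other AT1 calls were kept without any single library. The 6 airway secretory markers summed to 624 to 954 CPM in Etv5KO and 318 to 724 CPM in control AT2 libraries. Of these, 3 were called higher and 3 were not past the threshold. The call of Muc5b was lost when any of 2 of the 9 libraries was left out. The 6 ciliated markers summed to 170 to 227 CPM in Etv5KO and 114 to 131 CPM in control AT2 libraries, with 2 called higher. Those 2 made up most of the sum: Tppp3 (153 CPM in Etv5KO and 96.2 CPM in control AT2 cells) and Dynlrb2 (26.3 and 16.6 CPM). The other 4 were not past the threshold, among them Foxj1 at 2.72 and 2.80 CPM. The call of Dynlrb2 was lost when any of 4 of the 9 libraries was left out. The mesenchymal sum was 56.7 to 104 CPM in Etv5KO and 47.7 to 76.6 CPM in control AT2 libraries with 0 of 8 called by edgeR (3 at an unadjusted p under 0.05, and 0 with DESeq2 and limma-voom). The endothelial sum was 231 to 275 CPM in Etv5KO and 253 to 305 CPM in control AT2 libraries, with 1 of 7 called lower. That gene was Esam, whose call was lost without control AT2 library 3. Esam made up most of the endothelial sum, at 166 CPM in Etv5KO and 200 CPM in control AT2 cells. The other 6 were not past the threshold, and the median log2 fold change of the 7 was 0.22, in the other direction. The immune sum was 91.9 to 109 CPM in Etv5KO and 62.2 to 93.8 CPM in control AT2 libraries. Of the 7 immune markers tested, 1 was called higher.

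Bex genes are known from brain and endocrine cells, so neuroendocrine and Schwann cell markers were read as well. The 13 neuroendocrine markers summed to 14.6 to 21.2 CPM in Etv5KO AT2 libraries and 12.2 to 14.5 CPM in control AT2 libraries, and to 31.3 to 39.3 CPM in Etv5KO lung and 30.6 to 33.6 CPM in control lung. Scg3 was at 0 in all Etv5KO AT2 libraries and Scg2 in all control AT2 libraries. Only 3 of the 13 had enough reads to be tested in AT2 cells, and 0 were called by edgeR (1 at an unadjusted p under 0.05, 1 with DESeq2 and 0 with limma-voom). The 7 Schwann cell markers summed to 127 to 160 CPM in Etv5KO and 121 to 127 CPM in control AT2 libraries, most of it Mbp. Mbp, which encodes myelin basic protein, rose (log2 0.27, edgeR adjusted p = 0.0385), a call that was lost when any of 7 of the 9 libraries was left out (adjusted p up to 0.111). In lung 0 of the 7 neuroendocrine and 0 of the 5 Schwann cell markers tested were called by edgeR (0 and 1 at an unadjusted p under 0.05, 0 and 1 with DESeq2, and 0 of each with limma-voom).

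The members lie among 30 protein-coding genes that run on the X chromosome from Tceal6 to Tceal1 in the RefSeq order, of which 11 are Bex or Tceal genes. Of the 19 other genes, 6 had enough reads in AT2 cells and 2 were called lower in Etv5KO by edgeR (4 at an unadjusted p under 0.05, 3 with DESeq2 and 2 with limma-voom): Arxes1 and Arxes2, the next 2 genes beside Bex2. Of all genes tested in AT2 cells, 4.84% were called lower. Arxes1 averaged 1.04 ± 0.345 CPM in Etv5KO AT2 cells (SD, n = 5) and 3.07 ± 0.906 CPM in control AT2 cells (SD, n = 4), with a log2 fold change of −1.58 (SE 0.28, edgeR adjusted p = 0.00391). Arxes2 averaged 5.43 ± 1.11 CPM in Etv5KO AT2 cells and 10.1 ± 1.65 CPM in control AT2 cells, with a log2 fold change of −0.89 (SE 0.16, edgeR adjusted p = 0.00468). The AT2 groups overlapped for neither gene, where 6.49% of all genes tested had lower values in Etv5KO without overlap. Both calls were kept without any single AT2 library, with values of −1.69 and −0.996 without control AT2 library 2. Arxes1 and Arxes2 are close copies of each other, a likeness not measured here. Only uniquely aligned reads were counted, so reads matching both genes would be left out of either count. In lung the groups overlapped for both (log2 fold changes −0.50 and 0.11), and 0 of the 7 other genes tested there were called by edgeR (0 at an unadjusted p under 0.05, and 0 with DESeq2 and limma-voom). Gprasp1 was past the threshold in AT2 cells with DESeq2 alone (log2 −0.31, DESeq2 adjusted p = 0.0254, and edgeR adjusted p = 0.0510). Bhlhb9 (log2 0.08) and Morf4l2 (−0.07), which lies just past Tceal1, did not pass the edgeR threshold there.

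**Figure D5:**
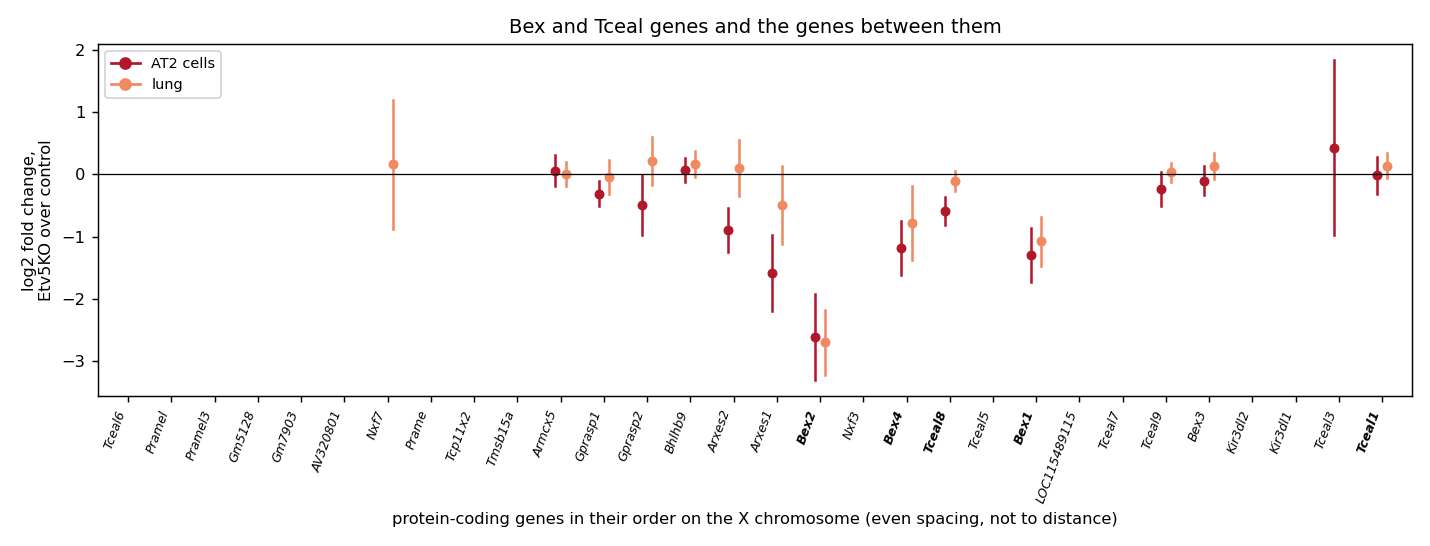
Log2 fold change of Etv5KO over control with its 95% interval for each tested gene of the cluster, in AT2 cells (red) and lung (orange), with genes in X chromosome order at even spacing and the 5 members in bold. The lowest values lie at Arxes1, Bex2, Bex4 and Bex1, with Tceal8, between Bex4 and Bex1, closer to 0, and Tceal9, Bex3 and Tceal1 at the right end near 0.

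The Armcx and Gprasp genes, which belong to the same X-linked expansion, were measured as 9 genes. In AT2 cells 0 of 8 tested were called by edgeR (3 at an unadjusted p under 0.05, 1 with DESeq2 and 0 with limma-voom), with a median log2 fold change of −0.14 beside −0.01 over all genes. In lung 0 of 9 were called (0 unadjusted, 0 with DESeq2 and 0 with limma-voom), with a median of −0.0049. Between tissues they did not share the direction of the members: among controls 3 were higher in AT2 cells and 5 lower, with a median log2 fold change of −0.80, beside 3.02 for the 5 members.

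Genes of the pathways that BEX and TCEAL proteins are linked to were called in AT2 cells in 3 of 22, 0 of 10 and 1 of 9 cases by list, beside 9.87% of all genes tested. Of 22 TFIIS and elongation factor genes, 1 was higher and 2 were lower in Etv5KO AT2 cells. The 2 were Tcea3, a TFIIS gene (log2 −0.46, SE 0.09, edgeR adjusted p = 0.00871), and Ccnt2, which encodes a cyclin of the elongation factor P-TEFb (−0.40, adjusted p = 0.0220), and the 1 was Eloa, which encodes Elongin A (0.25, adjusted p = 0.0427). The calls of Ccnt2 and Eloa were lost without single libraries, with adjusted p-values up to 0.0685 and 0.118. The list's median was 0.01, beside −0.01 over all genes.

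Of 10 genes of the CUL2-FEM1B ligase and its substrates, 0 were called by edgeR in AT2 cells (1 at an unadjusted p under 0.05, 1 with DESeq2 and 0 with limma-voom), with a median of −0.09. Fem1b, the substrate receptor, stood at 167 CPM in Etv5KO and 155 CPM in control AT2 cells. Of 9 neurotrophin receptor and p75 adaptor genes tested, 1 was lower in Etv5KO AT2 cells: Maged1, which encodes the p75-binding protein NRAGE, at 250 CPM in Etv5KO and 325 CPM in control AT2 cells (log2 −0.37, SE 0.07, edgeR adjusted p = 0.00583). In lung none of these 3 lists held a call by edgeR: 0 of 22, 0 of 10 and 0 of 11 (0, 1 and 2 at an unadjusted p under 0.05, 0, 0 and 1 with DESeq2, and 0 of each with limma-voom). Without control AT2 library 2 the Maged1 value was −0.34. Its genotype difference, AT2 minus lung, was −0.43 (edgeR adjusted p = 0.0357), a call that was lost when any of 15 of the 19 libraries was left out (adjusted p up to 0.100).

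The genes whose pattern over the 19 libraries was most like each member were found by Pearson correlation of log2 CPM among 12240 genes. The libraries fall into 4 groups, and all of these genes were called by edgeR between AT2 cells and lung. Ndfip1, Cnbp, Lamp2 and Zc3h15, named below, were not called between the genotypes. The values therefore describe mainly the group pattern and carry no p-value. For Bex2 they were Acoxl (r = 0.993), Nrn1 (0.973), Trpv6 (0.967), Gjb1 (0.961) and Elovl1 (0.960). Acoxl, related to acyl-CoA oxidases, averaged 134 CPM in Etv5KO AT2 cells and 849.5 CPM in control AT2 cells. Its deviations from the group means correlated with those of Bex2 at 0.867. These deviations are part of the r by which it was picked, so this is not a separate check. For the other 4 genes that value was lower, from 0.358 for Trpv6 to 0.597 for Nrn1.

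For Bex1 the most alike genes were Tmem42 (r = 0.992), Snx25 (0.988) and Sftpa1 (0.988), the last a surfactant protein gene, and for Bex4 they were Gm6213 (0.981), Krt23 (0.980) and Rprm (0.979). For Tceal8 they were Fyttd1 (0.977), Zc3h15 (0.975) and Id2 (0.972). Tceal1 was most like Ndfip1 (0.963), Cnbp (0.961) and Lamp2 (0.958), with correlations of deviations from 0.805 to 0.847. Within the family, Bex3 and Tceal9 followed each other most closely (r = 0.994, and 0.817 for deviations from group means). Bex1 and Bex2 had r = 0.917 over all libraries but 0.313 for deviations, and Bex1 and Bex4 0.971 and 0.317.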

How the data were processed

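PolyA RNA was sequenced from 19 libraries. The authors deposited, per the file headers, a count of uniquely aligned reads per gene model and an RPKM value divided by a size factor. GSNAP and mm9 are named in the submitters' processing notes. The annotation release, read length and strand setting of the counting are not given. Of 36528 Entrez IDs, 31049 were named from RefSeq (GRCm38.p6), holding 98.72% of counts.

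Counts were tested with edgeR 4.0.16 in R 4.3.3: filterByExpr (minimum count 10, minimum total 15), TMM scaling, the two-sided quasi-likelihood F test and Benjamini-Hochberg adjustment over all genes tested, threshold 0.05. Each comparison was fitted on its own 2 groups, and the difference of genotype effects on all 19 libraries. Alternatives were DESeq2 1.42.0, limma-voom (limma 3.58.1), other scalings, no filter, a test against a fold of 1.2, a shared spread, and leaving out each library. The fit was also run on simulated data with the same spread for every gene and changes set only in better covered genes. That simulation does not cover the members' own spread or low counts, and no result here rests on it. CPM uses TMM over all 19 libraries. Intervals are at 95%. Replicates are separate libraries of a group, numbered in accession order, and the labels do not tie lung and AT2 libraries to mice; p-values measure the spread between these libraries. Batches are not given in the labels.

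The members and the lists were chosen with earlier results of these data known. Besides the members, the text names the other Bex and Tceal genes, Etv5, up to 4 genes of each list with the smallest p among those past the threshold, the most alike genes by Pearson correlation (mean of at least 5 CPM), and the 3 nearest protein-coding neighbours on each side of a member. Shared windows and coding identity came from GENCODE vM21 transcripts, in place of protein identity, and promoters from RefSeq on GRCm38.p6. Coordinates belong to that build, not mm9. The result of 1 gene of the Schwann cell list is not reported here.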

Additional observations from a re-analysis of the deposited data

Results flagged for a closer look

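Of 45 gene and group pairs of the 12 family genes, 6 held a library far from the others of its group by Dixon's criterion. Chance gives this in about 1 of 20 groups of normally distributed values, a rate that does not apply to counts near 0. Among the members, Tceal1 was lowest in Etv5KO AT2 library 2 at 13.3 CPM, and Tceal8 was lowest in Etv5KO lung library 4 at 26.7 CPM. Tceal9 was highest in control AT2 library 3 at 311 CPM. Bex6 was highest in control lung library 1 at 0.721 CPM. Tceal7 reached 0.0425 CPM in Etv5KO lung library 2 and 0.0424 CPM in control lung library 1, which is 1 read in each. The rest of both groups had 0 reads, and a lone read in such a group is always flagged.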

How the results depend on the processing

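Of 455 alternative values for the members' log2 fold changes, 432 kept direction and side of the threshold, 8 fell below it, 3 rose past it and 12 changed sign. The AT2 genotype count of 1474 genes became 624 against a fold of 1.2. The lung count of 71 became 197 with DESeq2, 35 against a fold of 1.2 and 122 with all 19 libraries in 1 fit, and 44 to 80 without single libraries (47 without control lung library 3 and 44 without library 4). The count of 282 for the difference of genotype effects became 456 with DESeq2 and 128 against a fold of 1.2. Members past the threshold in lung numbered 1 in place of 2 against a fold of 1.2 and 1 to 2 without single libraries, as Bex1 was lost. For the difference of effects they numbered 1 in place of 0 with DESeq2 and 0 to 1 without single libraries. Values near 0 changed sign: Tceal1 in AT2 cells was 0.056 by library size and 0.0013 by the authors' size factors, and −0.13 to 0.063 without single libraries. Tceal9 in lung was −0.0023 to 0.075 without single libraries. The difference of effects was −0.19 to 0.28 for Bex2 and −0.37 to 0.91 for Tceal3 without single libraries, and for Etv5 it was 0.026 by library size and −0.086 to 0.040 without single libraries. By library size Morf4l2 in AT2 cells over lung was −0.17 among Etv5KO libraries and −0.12 among controls. The cause was not tested for any of these. Bex4 in lung, at 6 to 25 reads, and the family genes with 20 reads or fewer are limited by depth. No paired analysis was possible because the replicate numbers follow accession order only.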
